A study of Mus musculus with 2 samples.

Results

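The genes described here encode enzymes that write or remove marks on histones: the lysine demethylases (Kdm), the lysine methyltransferases of the Kmt nomenclature (Kmt) and the histone deacetylases (Hdac). They were taken as all coding genes on chromosomes 1 to 19 of the mouse annotation (RefSeq, GRCm38.p6, the build called mm10) whose symbol starts with Kdm, Kmt or Hdac and then a digit. This gave 32 genes of 20665, namely 15 Kdm, 8 Kmt and 9 Hdac genes. The rule goes by name and uses no measured value, but it was chosen with earlier results of these data known. Left out by the same rule were 5 namesakes on the sex chromosomes and 2 pseudogenes.

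The libraries are ATAC-seq, where Tn5 transposase cuts and tags DNA that nucleosomes leave accessible, from the murine mesothelioma cell line AB22. Both groups carried a doxycycline-inducible hairpin in the pTRIPZ lentiviral vector, a control hairpin (shCTRL) or one against Hmgb1 (shHMGB1), which encodes an abundant DNA-bending chromatin protein. Virus was used at a multiplicity of infection of 20, cells were selected with puromycin at 4 μg/mL, and hairpins were induced with doxycycline at 1 μM for 7 to 10 days, with 5% oxygen as labelled; no radiation dose is given for these libraries. The comparison asks how open sites differ once Hmgb1 is silenced. There was 1 library per group, so nothing measures how far 2 libraries of the same group would differ, and no test between groups was made. Every interval of a pileup or ratio below covers counting error only. Intervals of shares take genes as independent trials, which are not replicates of a group, and are descriptions.

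Each library came with a list of peaks with their summits and a list of nucleosome-free regions. The value given for a summit is its pileup, the number of sequenced fragments over that position, recovered from the deposited fold. No read totals were at hand. Peaks were called over an expected pileup, named background below, of 2.79 fragments in shCTRL and 1.68 in shHMGB1, and the lowest pileup listed was 10 and 7, so a site without a listed summit had at most 9 and 6 fragments if all sites above the limit were listed. The 2 lists held 104336 and 92282 peaks and 16275 and 14634 nucleosome-free regions. Hmgb1 itself was open in both, with 75 and 83 fragments at its end; a hairpin acts on RNA, so this does not check the labels. Of the markers looked at, the mesenchymal genes Acta2, S100a4 and Col1a2 had 74 to 95 fragments in shCTRL and 77 to 97 in shHMGB1. Of the 5 mesothelial markers only Msln, which encodes mesothelin, had an end summit in both (22 and 12 fragments), Calb2 (13) and Wt1 (12) were listed for shCTRL only, and Krt19 and Upk3b had none, so the labelled cell type rests on the label. Of 9 leukocyte, epithelial and endothelial markers Spi1 (14 and 10) was listed in both, Cd68, Csf1r, Cdh5 and Tek (11 to 18) in shCTRL alone, and Ptprc, Cdh1, Epcam and Pecam1 in neither.

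As background, histone acetylation loosens contacts between nucleosomes and DNA and goes with active genes, and deacetylases remove it, mostly within corepressor complexes. Methylation of histone lysines does not change charge. It is read by other proteins, and its effect depends on the residue, with some marks found at active promoters and enhancers and others in silent chromatin. Demethylases use either a flavin-dependent oxidase (Kdm1 proteins) or the iron- and oxoglutarate-dependent JmjC domain (the other Kdm families).

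A promoter sequence was given for 22 of the 32 genes, at 35 start sites. The 6 shown here, of 250 bases up to the base before the start site (RefSeq, GRCm38.p6), stand for the patterns below: the strongest start sites inside an annotated gene (Kdm4c and Hdac4), a strong promoter at a gene end (Kdm4a), a promoter rich in G and C with a lower summit in shHMGB1 (Kdm7a), a promoter listed in shCTRL alone (Kdm1a) and one without a listed summit (Kmt2a). Capitals mark matches, on either strand, to the motifs searched.
Kdm4c internal start, chr4:74251629-74251878, plus strand: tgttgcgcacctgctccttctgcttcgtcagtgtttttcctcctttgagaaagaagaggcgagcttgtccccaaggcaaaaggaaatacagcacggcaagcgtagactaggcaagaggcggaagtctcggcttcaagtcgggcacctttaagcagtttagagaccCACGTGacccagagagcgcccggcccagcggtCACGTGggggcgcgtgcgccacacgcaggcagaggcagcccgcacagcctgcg
Hdac4 internal start, chr1:92180342-92180591, minus strand: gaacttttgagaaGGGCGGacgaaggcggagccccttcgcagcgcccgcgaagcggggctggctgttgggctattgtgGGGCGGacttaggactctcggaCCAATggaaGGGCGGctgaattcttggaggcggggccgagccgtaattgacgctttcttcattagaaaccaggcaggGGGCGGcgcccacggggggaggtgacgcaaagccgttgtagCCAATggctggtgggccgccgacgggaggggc
Kdm4a, chr4:118180044-118180293, minus strand: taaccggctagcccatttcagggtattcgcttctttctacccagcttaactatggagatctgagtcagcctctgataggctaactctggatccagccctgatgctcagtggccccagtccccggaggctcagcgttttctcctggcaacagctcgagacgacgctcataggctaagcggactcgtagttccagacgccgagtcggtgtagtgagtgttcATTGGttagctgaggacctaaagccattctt
Kdm7a, chr6:39206774-39207023, minus strand: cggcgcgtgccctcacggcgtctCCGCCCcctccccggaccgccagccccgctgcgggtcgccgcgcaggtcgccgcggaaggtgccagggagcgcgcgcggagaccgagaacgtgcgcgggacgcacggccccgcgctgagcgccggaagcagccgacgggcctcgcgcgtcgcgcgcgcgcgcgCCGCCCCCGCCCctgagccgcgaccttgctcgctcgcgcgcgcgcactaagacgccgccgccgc
Kdm1a, chr4:136602724-136602973, minus strand: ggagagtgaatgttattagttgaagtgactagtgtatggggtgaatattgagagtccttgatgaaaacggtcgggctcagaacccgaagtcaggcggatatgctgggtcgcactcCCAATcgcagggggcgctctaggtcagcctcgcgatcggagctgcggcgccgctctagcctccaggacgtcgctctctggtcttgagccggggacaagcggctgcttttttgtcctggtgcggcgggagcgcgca
Kmt2a, chr9:44881290-44881539, minus strand: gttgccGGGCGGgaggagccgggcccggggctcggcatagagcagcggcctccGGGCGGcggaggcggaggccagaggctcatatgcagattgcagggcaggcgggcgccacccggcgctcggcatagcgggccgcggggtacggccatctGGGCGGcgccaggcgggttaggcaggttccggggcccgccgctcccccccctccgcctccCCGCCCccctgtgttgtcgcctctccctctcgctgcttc

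In these sequences the capitals are CACGTG (E-box) at Kdm4c, GGGCGG (GC box) and CCAAT at Hdac4, CCAAT at Kdm4a and Kdm1a, and GGGCGG at Kdm7a and Kmt2a. Over the upstream 250 bases of all 35 start sites, GGGCGG was present in 62.9% of the members' promoters and in 43.4% of the 20085 autosomal promoters, and CCAAT in 40% and 35.3%. The core promoter motif TATAAA was present at 1 start site of Hdac9, or 2.86% against 11.7%, and CACGTG at 1 of Kdm4c, or 2.86% against 6.69%. No member promoter held CCGGAAGT (ETS; 3.88% of all promoters), ATGGCGGC (YY1; 1.24%), the palindromic NRF1 motif (1.08%) or TGACGTCA (CRE; 1.98%). Some members count several start sites that overlap, so the shares are descriptions. The promoters were also richer in G and C than most, over the bases from 250 before to 50 after the start, with a median of 61.7% (range 40 to 88%) against 57%, and a median ratio of observed to expected CpG of 0.82 against 0.59.

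Most members were open in both libraries. An end summit, within 1 kb of an annotated gene end, was listed in both for 25 of 32 members (78.1%, exact Clopper-Pearson 95% interval 60.03 to 90.7), against 53.5% of all autosomal coding genes. By name this was 12 of 15 Kdm, 7 of 8 Kmt and 6 of 9 Hdac genes. Kdm1a was listed in shCTRL alone, as were 6.1% of all genes, no member in shHMGB1 alone (1.8%), and 6 members in neither (38.5%). The highest end summits of the members had a median of 45 fragments in shCTRL and 36 in shHMGB1, beside 39 and 35 for all genes with one.

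**Figure D1:**
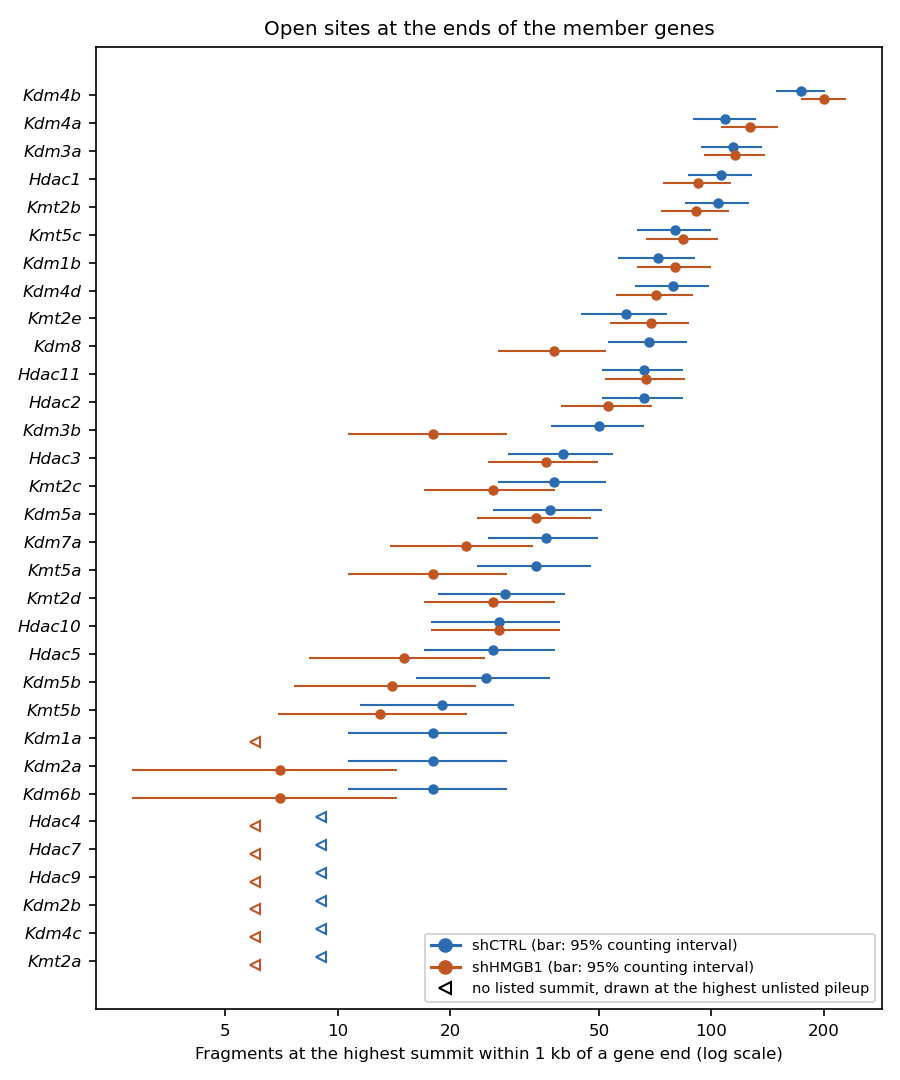
Fragments at the highest summit within 1 kb of an annotated gene end (log scale) for each of the 32 members, shCTRL in blue and shHMGB1 in orange, with 95% Poisson intervals of counting error; open triangles stand at the highest unlisted pileup where no summit was listed. Kdm4b leads with 174 and 200 fragments, and the largest separations of the 2 libraries among the higher genes are at Kdm8 and Kdm3b.

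Among the demethylase genes, Kdm4b held the strongest end site of both libraries, and Kdm4a and Kdm3a followed. Kdm4b (chromosome 17, 56325970 to 56403774) reached 174 fragments in shCTRL (exact Poisson 95% limits 149.1 and 201.9) and 200 in shHMGB1 (173.2 and 229.7). Kdm4a (chromosome 4, 118136957 to 118180090) had 109 (89.5 to 131.5) and 127 (105.9 to 151.1). Both encode JmjC enzymes that act on lysines of histone H3, and both were higher in fragments in shHMGB1 although its background was lower. Kdm4d (79 and 71), a relative with a short protein, stood near equal. Its end summit lies 53 bp from an end of the neighbouring gene Cwc15, so the site cannot be given to either gene alone.

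The Kdm3 genes, whose products remove methyl groups from lysine 9 of histone H3, differed from each other. Kdm3a (chromosome 6, 71588970 to 71632990) had 114 fragments (94.0 to 137.0) in shCTRL and 116 (95.9 to 139.1) in shHMGB1, near the same number. Kdm3b (chromosome 18, 34777008 to 34839370) had 50 (37.1 to 65.9) in shCTRL and 18 (10.7 to 28.4) in shHMGB1, and the intervals did not overlap. Its shCTRL list had 4 summits around the lower-coordinate end, at -163, -49, 212 and 394 bp from it, with 23, 50, 24 and 20 fragments. The shHMGB1 list had 4 near the same places, at -165, -61, 332 and 435 bp, with 18, 14, 11 and 16 fragments. The site was thus listed in both, and the gap was widest at the tallest summit of shCTRL.

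Of the amine oxidase genes, Kdm1b was among the stronger sites (72 and 80 fragments, with the end of Tpmt 106 bp away) and Kdm1a was weak. Kdm1a (chromosome 4, 136550533 to 136602787) encodes LSD1, the demethylase of the CoREST corepressor complex. It had 3 summits of 13, 18 and 13 fragments within a peak of 418 bp over its start site in shCTRL, and none listed in shHMGB1, where the nearest summit to an end lay 4140 bp away. The highest, 18 fragments (10.7 to 28.4), stands 12 bp past the start site that follows the sequence shown above. A listing limit of 7 in shHMGB1 means that the site was at 6 or fewer there, if all higher sites were listed; no fold was formed.

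The other demethylase genes with end summits had fewer fragments in shHMGB1, in different degrees. These pileups are not scaled between libraries. Over all autosomal genes compared below, the median log2 ratio of shHMGB1 over shCTRL was itself -0.20, and relative to that median Kdm5a stood at 0.08. Kdm8 (chromosome 7, 125444620 to 125463651), which encodes a JmjC protein, had 68 (52.8 to 86.2) and 38 (26.9 to 52.2). Kdm7a, on chromosome 6, whose product acts on lysines 9 and 27 of histone H3, had 36 (25.2 to 49.8) and 22 (13.8 to 33.3). Kdm5a (37 and 34) and Kdm5b (25 and 14) encode enzymes that remove the active mark on lysine 4 of histone H3, and their intervals overlapped between libraries. An end of Ccdc77 lay 299 bp from the Kdm5a summit of shCTRL. Kdm2a and Kdm6b had 18 and 7 each at their ends, where 7 is the lowest pileup listed in shHMGB1. For Kdm2a and Kdm6b the end windows missed the main sites, which lay within the genes and are given below.

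Methyltransferase genes of the Kmt2 family, whose products methylate lysine 4 of histone H3 at promoters and enhancers (Kmt2e lacks that activity), ranged from strong to unlisted. Kmt2b (chromosome 7, 30568855 to 30589056) had 104 fragments (85.0 to 126.0) and 91 (73.3 to 111.7), in peaks of 1944 and 1932 bp, the widest end peaks of any member in either library. An end of Zbtb32 lay 685 bp from the summit of shCTRL. Kmt2e had 59 and 69. Kmt2c had 38 and 26 at a summit 826 bp beyond its end, 898 bp upstream of its start site, whose promoter has 88% G and C; closer to the end, shCTRL had 14 fragments 27 bp inside it and 24 at 110 bp beyond it, and the nearest summit of shHMGB1 was 18 at 278 bp beyond it. For Kmt2d (28 and 26) the end summit lay 28 bp from an end of Prkag1 and at the far end of the gene from its start site, where 15 and 17 fragments were the most within 1 kb. Kmt2a, the founding member known from leukaemia translocations, had no summit within 1 kb of its ends, the nearest at 1278 and 1266 bp.

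The Kmt5 genes, which place methyl groups on lysine 20 of histone H4, also differed. Kmt5c (chromosome 7, 4740092 to 4747514) had 80 (63.4 to 99.6) and 84 (67.0 to 104.0). Kmt5a, which encodes the enzyme for the single methyl group, had 34 (23.5 to 47.5) and 18 (10.7 to 28.4), and Kmt5b 19 and 13.

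Among the deacetylase genes, the 3 of class I all had end summits in both libraries: Hdac1 (chromosome 4, 129516104 to 129542646) with 106 (86.8 to 128.2) and 92 (74.2 to 112.8), Hdac2 with 66 and 53, and Hdac3 with 40 and 36, the last at 104 bp from an end of Rell2. Of the class IIa genes, whose products shuttle between nucleus and cytoplasm, Hdac5 had 26 and 15, while Hdac4, Hdac7 and Hdac9 had no end summit in either library. Hdac10 (27 and 27) and Hdac11 (66 and 67) had the same or nearly the same number in both. The classes were not tested against each other.

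Some start sites of the promoter table lie far inside the annotated gene ends. When the start sites of the promoter table were looked at, 19 of 22 members with one had a summit within 1 kb of a start in both libraries (86.4%, interval 65.1 to 97.1), against 54.7% of all autosomal genes with a start site. Kdm4c, with no end summit, had the joint highest member summit of shCTRL at a start site 9382 bp inside the gene: 174 fragments (149.1 to 201.9), and 146 (123.3 to 171.7) in shHMGB1. Its summits lay 65 and 64 bp upstream of the start, between the 2 CACGTG matches of the sequence shown, which begin 85 and 53 bp upstream. Hdac4 had 117 (96.8 to 140.2) and 129 (107.7 to 153.3) at a start 15361 bp inside the gene, at 230 and 234 bp upstream. Both libraries put these summits within 4 bp of each other.

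Weaker internal starts were open as well. Kdm2b, which encodes a CpG island-binding protein that recruits a Polycomb complex, had at most 30 fragments in shCTRL and 18 in shHMGB1 at its internal starts. These were different summits, and the matched pair there had 23 and 18. Its outer starts had no summit. Hdac7 had at most 22 and 13 at the middle starts, where the matched pair had 20 and 13, and none at the others. Kmt5b had 55 and 51 at 936 and 944 bp past its inner start, near the edge of the window. Closer to that start, shCTRL had 15 fragments 17 bp upstream and 16 at 109 bp past it. The nearest summit of shHMGB1 had 13 fragments at 223 bp past it. At the innermost of 3 starts of Kmt5a the matched summit was higher in shHMGB1, with 21 and 38 fragments (the tallest summit of shCTRL there, 25, had no partner), while at the outer start the numbers were 34 and 18. Kmt2a and Hdac9 had no summit within 1 kb of any start in either library. In Kmt2a, with 75.7% G and C, this was unlike most: of 791 autosomal start sites with 75 to 80% G and C, 90.01% had a summit in shCTRL and 80.9% in shHMGB1. The Hdac9 starts had 44 and 45.3%, in a range (40 to 50%) where 26.9% and 25.9% had one.

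**Figure D2:**
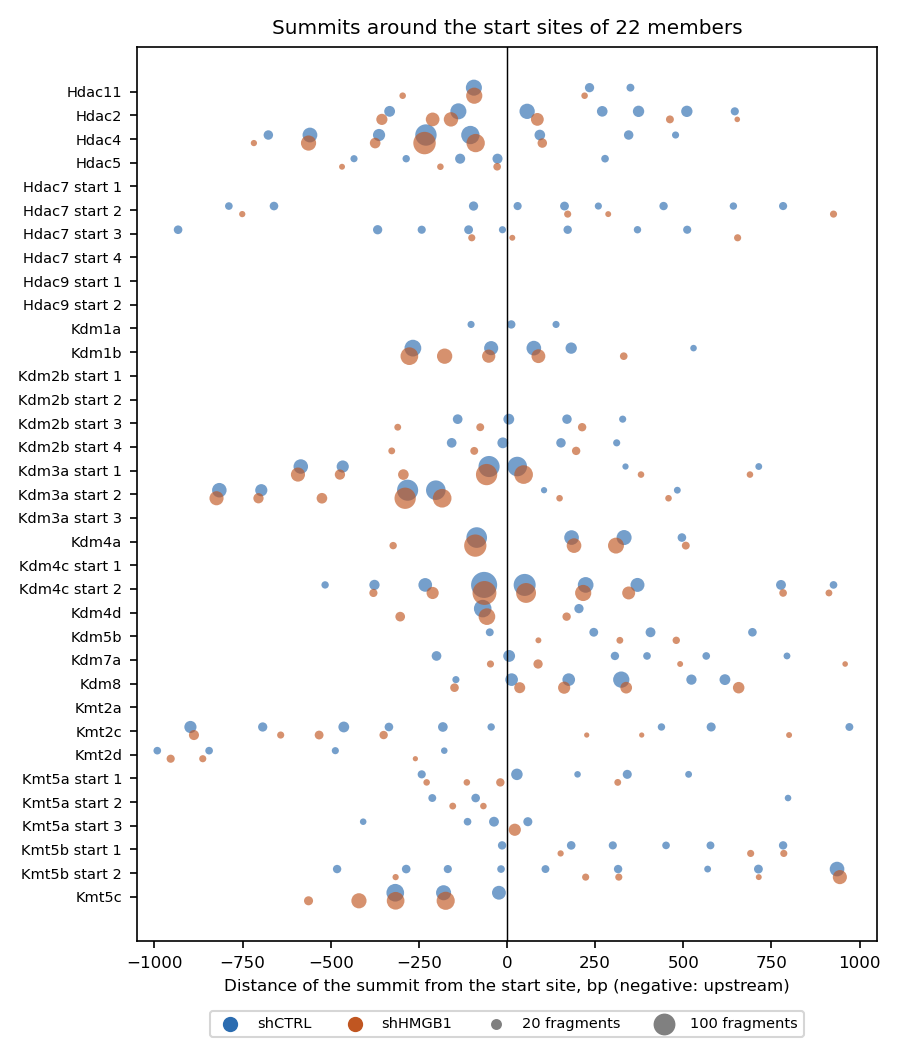
Summits within 1 kb of the 35 start sites of 22 members, by distance from the start in bp (negative is upstream), with point area in proportion to fragments, shCTRL in blue and shHMGB1 in orange; starts of a gene are numbered in the direction of transcription, and neighbouring starts show the same summits again. The largest points, at Kdm4c start 2, Hdac4, Kdm3a and Kdm4a, sit at the same distance in both libraries, and Kmt2a and Hdac9 have none.

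Summits of the 2 libraries within 150 bp of each other were then compared at gene ends, taking the highest matched pair of each gene and dividing by the median ratio of the 10825 autosomal genes that had one. All 25 members with end summits in both had a matched pair. Their median log2 ratio of shHMGB1 over shCTRL was 0.01, beside 0.00 for all genes by construction, and 12 of 25 lay below the median gene, as did 49.8% of all genes. The members were spread toward lower values: their lower quartile was -0.63 and that of all genes -0.27, while the upper quartiles were 0.22 and 0.24. Taken relative to the background of each library, in place of the median gene, all ratios of all genes are 0.53 higher on the log2 scale, and then 10 of the 25 members are past 1.5-fold higher and 3 lower, beside 44.2% and 0.84% of all genes.

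Past 1.5-fold in the lower direction were 8 of 25 members (32.0%, interval 14.9 to 53.5), against 9.39% of all genes, and past it in the higher direction 0 of 25, against 4.59%. The 8 were Kdm3b, Kdm7a, Kdm2a, Kdm6b, Kdm8, Kmt5a, Kdm5b and Hdac5, so 6 of 12 matched Kdm genes, 1 of 7 Kmt and 1 of 6 Hdac genes; the families were not tested against each other. At Kdm3b 50 and 14 fragments gave a log2 ratio of -1.63 (95% interval -2.60 to -0.76). At Kdm7a 36 and 13 gave -1.27 (-2.31 to -0.32). At Kdm8 68 and 35 gave -0.76 (-1.39 to -0.15). These 3 intervals, of 25, lay below the median gene, against 2.49% of all genes. In each of the 3 a taller summit of shHMGB1 at the same end was not the nearest partner: 22 fragments at Kdm7a (88 bp inside the end, where the summit of shCTRL was 6 bp inside), 18 at Kdm3b and 38 at Kdm8. With the highest end summit of each library in place of the matched pair, a choice made after seeing the data, Kdm7a stood at -0.49 and was no longer past 1.5-fold. On that measure Kdm3b stood at -1.25 and Kdm8 at -0.62, and 6 of 25 members were past it, beside 8.15% of all genes. For the other 5 the interval included 0: Kdm2a -1.16 (18 and 7 fragments), Kdm6b -0.90 (15 and 7), Kmt5a -0.72 (34 and 18), Kdm5b -0.63 (25 and 14) and Hdac5 -0.59 (26 and 15). The matched summit of Kdm2a in shCTRL lay 631 bp from its end and 551 bp from an end of 9430078G10Rik. That of Kdm6b lay 866 bp from its end, 592 bp from an end of Tmem88 and 971 bp from an end of Naa38. The sites of Kdm2a and Kdm6b thus cannot be given to these members alone.

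Above the median gene by their interval were 2 members, Kdm4b at 0.44 (0.14 to 0.75; 169 and 200 fragments) and Kdm4a at 0.42 (0.04 to 0.80; 109 and 127), as were 6.45% of all genes, and neither was past 1.5-fold. Kmt2e stood at 0.43 (-0.10 to 0.95), Hdac10 at 0.37 and Kdm1b at 0.35, with intervals that included 0. Hdac1 (0.00), Kmt2b (0.01), Hdac3 (0.05) and Kdm4d (0.05) were nearest to the median gene. At the internal starts the log2 ratios were 0.34 (-0.03 to 0.72) for Hdac4 and -0.05 (-0.38 to 0.27) for Kdm4c, and at the innermost start of Kmt5a 1.06 (0.25 to 1.90), against -0.72 (-1.63 to 0.15) at its outer end.

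**Figure D3:**
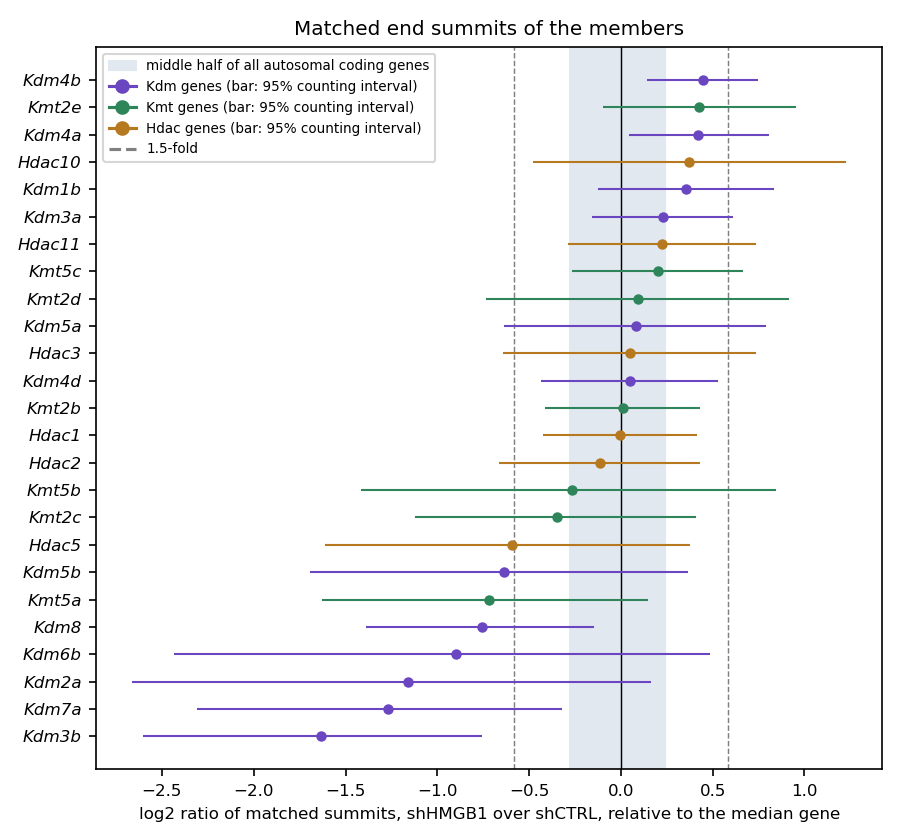
Log2 ratio of matched end summits, shHMGB1 over shCTRL, relative to the median autosomal coding gene, for the 25 members with a matched pair, with 95% conditional binomial intervals of counting error; the shaded band runs from the lower to the upper quartile of all genes (-0.27 to 0.24) and dashed lines mark 1.5-fold. The 8 members left of the lower line include 6 Kdm genes, and Kdm4b and Kdm4a are the members whose interval lies above 0.

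Height went with the ratio over all genes, and the lower members were mostly low sites. From the lowest to the highest decile of genes by height over background, the median log2 ratio went from -0.30 to 0.22, and the share past 1.5-fold lower from 25.6% to 0.09%. Of the 9 members with a combined pileup under 60 fragments 6 were past 1.5-fold lower, against 19.7% of all genes that low, and of the 16 with 60 or more 2 were, Kdm3b and Kdm8, against 3.82%. Past 1.5-fold higher were 0 of 9 and 0 of 16 members, against 4.73% and 4.52%. Relative to genes of the same decile, 5 members stayed past it, Kdm3b (-1.51, -2.48 to -0.64), Kdm7a (-1.13, -2.17 to -0.18), Kdm2a (-0.86), Kdm8 (-0.77, -1.40 to -0.16) and Kdm6b (-0.60), beside 4.76% of all genes, while Kdm4b (0.22, -0.08 to 0.53) and Kdm4a (0.20, -0.18 to 0.58) no longer had an interval above 0. Summing all matched summits of a gene moved Kdm8 to -0.02 and Kdm3b to -0.68. At Kdm8 the pair with 68 and 35 fragments lies 324 and 338 bp past the start, and the summits around it had 41 and 31, 41 and 38, 30 and 34 and 13 and 19, with 1 of 27 in shCTRL alone.

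**Figure D4:**
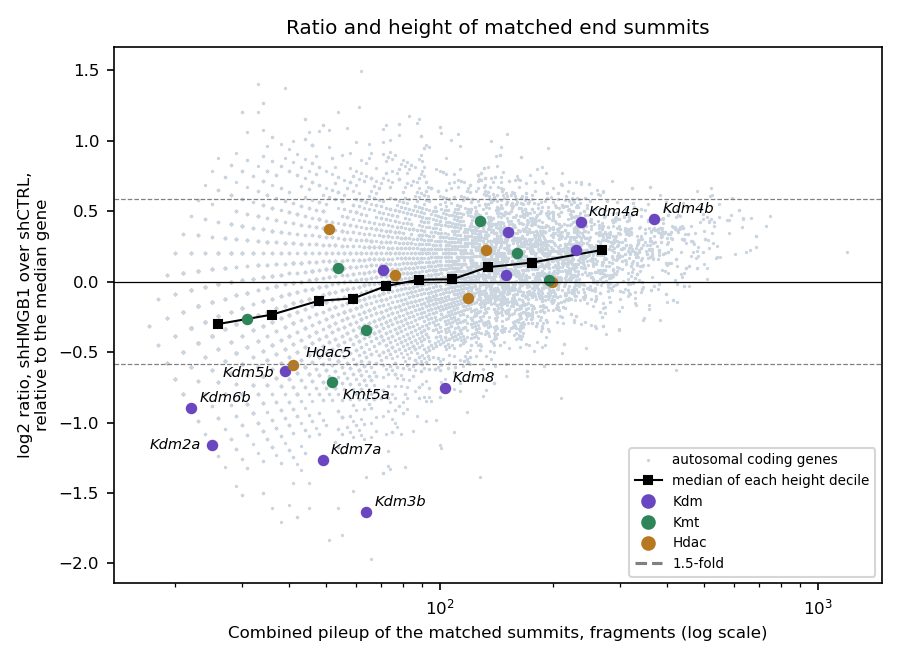
Log2 ratio of matched end summits (shHMGB1 over shCTRL, relative to the median gene) against the combined pileup of the pair in fragments (log scale), for all autosomal coding genes in grey and the 25 members in colour by family, with the median of each decile of genes by height in black. The black line climbs from -0.30 to 0.22, and Kdm3b, Kdm7a and Kdm8 lie well under it.

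Base composition moved with the ratio as well. Among genes with a start site within 1 kb of the matched summit, the median log2 ratio was 0.08 for promoters of 50 to 55% G and C (987 genes) and -0.24 for those of 80% or more (141 genes). Only 14 of the 25 matched members had such a start site, so a check of the whole group for base composition is void. Kdm7a, at 82.7%, belongs to the last range and differed from its median by -1.03. Kdm8 (50%), Kdm5b (54.7%), Hdac5 (60.7%) and Kmt5a (59.7%) lay in ranges whose medians were 0.04 to 0.08. The part of height and of base composition in these ratios was not tested.

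Within the genes, over 1 kb from both ends, the members held 196 summits in shCTRL against 142 for shHMGB1, or 0.724 times as many, beside 0.831 for all autosomal coding genes (74790 and 62151). At least 1 such summit was found in 24 and 25 of 32 members, against 46.3% and 43.8% of all genes; members are of very different length. Per 10 kb of gene body the members had 0.71 and 0.51 summits and all genes 0.78 and 0.65. More summits in shCTRL were listed in 16 members (all genes 23.2%) and more in shHMGB1 in 7 (18.1%). Of the members' summits 96 had a partner within 150 bp in the other library, or 49.0% of the shCTRL and 67.6% of the shHMGB1 summits, beside 52.7% and 63.5% for all genes, and those without one had at most 38 and 17 fragments.

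Kdm6b, the demethylase gene for lysine 27 of histone H3 that responds to inflammatory signals, was the most densely covered, with 27 and 18 summits in a gene of 21860 bp, or 13.6 and 9.06 per 10 kb. Its main sites stood at chromosome 11, 69408725 (70 fragments, 54.6 to 88.4) and 69418957 (61) in shCTRL, and at 69408730 (60) and 69418962 (64, 49.3 to 81.7) in shHMGB1, so the strong sites were alike in the 2 libraries although its ends had 18 and 7. Kdm2a likewise had 67 and 56 fragments at 4334059 and 4334062 of chromosome 19. At a further site, inside its higher-coordinate end but out of the window, shCTRL had 42 at 4397250, and shHMGB1 had 17 at 4397286, the closest, and 29 at 4397128. Kdm4a and Kdm5a had inner sites of 66 and 54 and of 43 and 46 fragments.

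The widest gap in numbers was at Hdac1, with 16 summits in shCTRL and 4 in shHMGB1, none above 18 and 8 fragments. The same direction held around it: within 500 kb on either side 758 and 501 peaks were listed, and in all gene bodies of chromosome 4 10897 and 6026 summits, a ratio of 0.553. Hdac5 (13 and 4 on chromosome 11, ratio of all genes there 0.798), Hdac7 (20 and 11 on chromosome 15, 0.72) and Kdm4b (23 and 15 on chromosome 17, 0.83) went the same way. Within 500 kb of these 3 the peaks numbered 93 and 85 at Hdac5 and 236 and 154 at Kdm4b. Around Hdac7 they numbered 34 and 36, near equal and not fewer in shHMGB1. Hdac9, in 869516 bp, had 13 in each library, 10 of them matched, and its tallest stood on chromosome 12 at 34076283 (35 fragments) and 34225827 (31) in shCTRL and at 34225886 (44) and 34075871 (29) in shHMGB1. Whether these weak summits follow the stretch of chromosome or the gene was not tested.

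**Figure D5:**
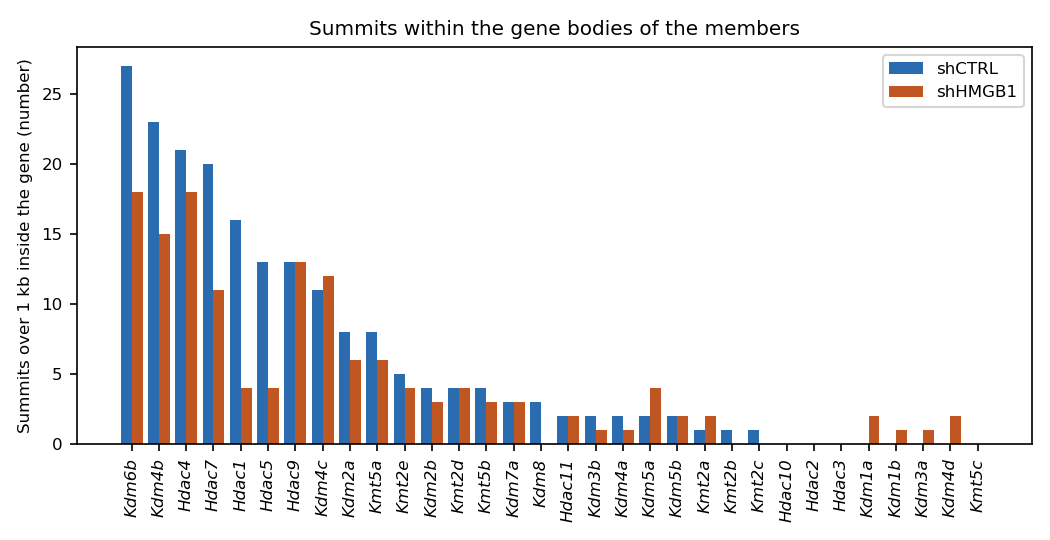
Number of summits over 1 kb inside each of the 32 members, shCTRL in blue and shHMGB1 in orange, ordered by the shCTRL number; the total is 196 and 142. The gaps are widest at Hdac1 (16 and 4), Hdac5, Hdac7, Kdm6b and Kdm4b, while Hdac9 and Kdm4c are near equal.

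Nucleosome-free regions, stretches listed with a low nucleosome occupancy and read here as a fraction, were found at the ends of 18 members in shCTRL (56.2%, interval 37.7 to 73.6) and 13 in shHMGB1 (40.6%, 23.7 to 59.4), against 28.7% and 25.7% of all autosomal genes. Both libraries listed one for 12 of 32 members, against 19% of all genes. In shCTRL alone were Hdac11, Kdm3b, Kdm4d, Kmt2c, Kmt2d and Kmt2e, and in shHMGB1 alone Hdac1, that is 6 and 1 of 32, against 9.74% and 6.7% of all genes. The regions of Hdac11 and Kmt2d lay at the far end of the gene from its start site, so they are not at the listed starts of these 2 genes. That of Kmt2d holds the end summit that lies 28 bp from an end of Prkag1. Whether it is a promoter of Prkag1 was not examined. The 27 and 19 end regions had median widths of 135 and 154 bp, beside 161 and 161 for all genes, and a median occupancy of 0.060 and 0.042, beside 0.059 and 0.054. The widest was at Kmt5a in shCTRL (551 bp), where shHMGB1 listed 2 regions of 178 and 218 bp in the same stretch.

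Individual regions matched the summits only in part. Kdm3a had regions of 374 and 342 bp over its start, with a deposited insertion density of 2.14 and 2.00, and a further one of 104 bp in shHMGB1. Kdm4b had 3 regions in shCTRL (81, 74 and 88 bp) and 1 in shHMGB1 (112 bp) although its summit was higher there. At Hdac4 the internal start carried a region of 231 bp in shCTRL and 225 bp in shHMGB1, nearly in the same place. At the internal start of Kdm4c regions were listed in shHMGB1 alone (70 and 117 bp, occupancy 0.097 and 0.094). Kdm8 had 1 region in shCTRL and 2 in shHMGB1; its summit was lower in shHMGB1.

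Other genes that handle histone marks, from 6 lists chosen with earlier results of these data known, gave a setting for the members. Of their 80 autosomal genes 72 had an end summit in both libraries, against 53.5% of all autosomal coding genes. In shCTRL alone were 4 (Nsd1 17 fragments, Phf2 17, Kat6b 14 and Prdm2 12), near the 6.1% of all genes. In neither were 4 (Smyd1, Ash2l, Dpy30 and Kat5), against 38.5%. Their median log2 ratio was 0.02. Past 1.5-fold lower were 7 of 72, near the 9.39% of all genes, and past 1.5-fold higher 1 of 72, against 4.59%. Among the methyltransferase genes the lower ones were Nsd2 (26 and 10 fragments; -1.18, -2.39 to -0.08), Dot1l (29 and 16; -0.66) and Setdb1 (23 and 13; -0.62). The sirtuin gene Sirt1, a deacetylase of another chemistry, stood at -0.98 (-1.96 to -0.06; 34 and 15). Of the partners of deacetylases Rcor2 stood at -0.99 (-1.87 to -0.15; 41 and 18), and of the partners of Kmt2 enzymes Pagr1a at -0.71 (32 and 17). The acetyltransferase gene Kat2b was the only higher one (30 and 45; 0.79, 0.09 to 1.504).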

How the data were processed

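ATAC-seq was done on 1 library of each group, taken from the silencing label. The submitters' processing notes name Trimmomatic 0.32, BWA 0.7.5-r404, SAMtools, bedtools, MACS2 and the build mm10 (GRCm38). Not given in the sources used here were their settings, a Tn5 offset and the program behind the nucleosome-free regions. The deposited score equals 10 times −log10 q, cut to a whole number, in every row. A Poisson upper tail of the pileup gave back each deposited −log10 p within 0.000126. The deposited fold is a ratio of (pileup + 1) to (expected + 1): with a single expected pileup per library, all 180632 and 156812 summits gave whole fragments within 0.001. The 194 and 155 rows without a summit position were placed at mid-peak. The deposited occupancy of nucleosome-free regions was read as a fraction, and the deposited insertion and bias densities as signal, from the layout and values alone.

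The gene table gives no strand or exons, so windows of 1 kb at both ends were used, and start sites only where the promoter table gave them. Summits matched as mutual nearest within 150 bp. Pileups have exact Poisson and ratios conditional binomial 95% intervals, for counting error only: no molecular identifiers are named, so copies of a molecule may be counted. Shares have Clopper-Pearson 95% intervals, which take genes as independent trials and hold no counting error of fragments. Genes are not replicates of a group, so these intervals are descriptions and no test. Called means past 1.5-fold. Python 3.11.15 and SciPy 1.17.1 were used. Every member is named; in other lists, genes listed in 1 library, in none or past 1.5-fold, except 1 gene that is not reported here. Members and lists were chosen with earlier results of these data known. Alternatives covered peak threshold, window, matching distance, scale, height and region width.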

Additional observations from a re-analysis of the deposited data

How the results depend on the processing

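No paired analysis was possible because each group had 1 library, and for the same reason none could be left out. The number of members with an end summit in both libraries ranged from 20 (−log10 q of at least 10) to 26 (2 kb windows), and was 29 with start sites added, a choice made after seeing the data. Members in shCTRL alone were 3 at a −log10 q of at least 5 (Kdm1a, Kdm2a, Kdm6b), 2 at 10 or more (Hdac5, Kdm5b), 2 with 500 bp windows (Kdm1a, Kdm6b) and 2 with 2 kb windows (Hdac4, Kdm1a), and there was none in shHMGB1 alone under any of these. The members past 1.5-fold lower were 5 of 22 with summits matched within 50 bp (all genes 8.99%), 5 of 25 relative to height (4.76%), 5 of 25 with summed summits (4.57%), 2 of 16 with a combined pileup of at least 60 and the median taken over such genes (5.16%) and, chosen after seeing the data, 6 of 25 with the highest summit of each library (8.15%) and 3 of 25 past 2-fold (1.51%). On the scale of each library's background 3 were lower (0.84%), 10 higher (44.2%), and the median was 0.54, since that scale shifts all genes. Each of these sets of lower members lay within the 8 first called, and Kdm3b was in every one. Gene body summits were 93 and 80 at a −log10 q of at least 5 and 48 and 40 at 10 or more, and without Hdac1, Kdm4b and Kdm6b 130 in shCTRL and 105 in shHMGB1. With regions of at least 150 bp only, 11 members in shCTRL and 9 in shHMGB1 had one at an end. For listed end summits, gene body summits and regions, all genes were not counted under these altered rules. Those counts show how the members' numbers move, not how the members compare with all genes. The cause of these shifts was not tested, beyond the smaller number of summits, genes or regions that a stricter rule leaves. At 7 fragments, as for Kdm2a and Kdm6b in shHMGB1, the counting interval of the ratio includes 0.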

Other observations

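The namesakes on chromosome X, outside the group described, showed no common direction. Hdac6, the cytoplasmic deacetylase of tubulin, had 46 fragments (33.7 to 61.4) in shCTRL and 64 (49.3 to 81.7) in shHMGB1, a log2 ratio of 0.68 (0.11 to 1.26) relative to the median autosomal gene. Kdm5c had 64 and 58 (0.06, -0.48 to 0.60) and Hdac8 21 and 15, and Kdm6a had no end summit but 6 and 5 within the gene. The median log2 ratio over all chromosome X coding genes with a matched pair was 0.16.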
